A study of Mus musculus with 15 samples.

Results

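This account follows 10 genes of the interleukin-6 (IL-6) cytokine family through mouse models of kidney and lung fibrosis in which circulating leptin was neutralized. The genes were taken by name: 5 ligands (*Il6*, *Il11*, *Lif*, *Osm* and *Clcf1*) and 5 receptor chains (*Il6ra*, *Il11ra1*, *Il6st*, *Lifr* and *Osmr*), out of 56748 genes listed in the table, and all 10 were measured. RNA-seq libraries came from male wild-type C57Bl/6 mice, with 3 libraries in each of 5 groups. WTK was kidney after vehicle, with tissue taken at day 28, in mice of 10 to 12 weeks. IgGK was kidney after folic acid, given once at 200 mg/kg, and control IgG, and LepK was kidney after the same folic acid dose and a leptin antibody, each given at 10 mg/kg for 21 days with tissue taken at day 28, in mice of 10 to 12 weeks. IgGL and LepL were lung after intratracheal bleomycin (1.5 units/kg) with control IgG or with the leptin antibody, each at 10 mg/kg for 14 days with tissue taken at day 14, in mice of 12 weeks. These ages are those when folic acid, vehicle or bleomycin was given, not those when tissue was taken. No lung library from uninjured mice was analysed here, so no lung result is a change from the healthy organ. The WTK label names vehicle alone and no IgG, so in IgGK against WTK the injury and the control antibody cannot be told apart.

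Cytokines of this family signal through receptor complexes built around a shared chain, gp130, the product of *Il6st*. IL-6 and IL-11 first bind their own alpha chains, encoded by *Il6ra* and *Il11ra1*, and the complex then recruits gp130, whereas LIF and oncostatin M assemble gp130 with the LIF receptor or, for oncostatin M in the mouse above all, with the oncostatin M receptor. Cardiotrophin-like cytokine factor, encoded by *Clcf1*, acts through a complex of the CNTF receptor, LIF receptor and gp130. The receptors activate JAK kinases and STAT3, which induces acute-phase genes and its own inhibitor *Socs3*. Family members are produced by leukocytes, fibroblasts and injured epithelium, and IL-11 and oncostatin M have been studied in fibrosis of kidney and lung.

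Library totals ranged from 25913969 to 38924788 counts, so that 1 read was worth 0.0257 to 0.0386 CPM, the counts scaled to a fixed library total. Tissue identity followed the labels: the surfactant genes *Sftpc*, *Sftpb* and *Sftpa1* lay under 1 CPM in kidney and the distal nephron genes *Umod*, *Slc12a1* and *Slc12a3* lay under 1 CPM in lung. *Abca3* and *Napsa*, also in the list of alveolar type 2 markers, reached 1 CPM in kidney. That list summed to 2558 to 2704 CPM in WTK, so its sum is compared within lung only. Cell type markers moved with the groups, given here as CPM summed over each marker list. In kidney, 8 macrophage markers summed to 187 to 214 CPM in WTK, 1687 to 2137 in IgGK and 599 to 893 in LepK, 7 fibroblast markers to 137 to 193, 1030 to 1181 and 387 to 617 CPM, and 6 proximal tubule markers to 13349 to 14214, 3126 to 4160 and 5617 to 7390 CPM. In lung, 6 neutrophil markers summed to 172 to 411 CPM in IgGL and 63.2 to 103 in LepL, 7 fibroblast markers to 5408 to 6212 and 2561 to 3411 CPM, and 6 alveolar type 2 markers to 6531 to 12045 and 17394 to 23668 CPM. The macrophage sum was 3659 to 6653 CPM in IgGL and 7993 to 8253 CPM in LepL, most of it *Lyz2*, while 6 of the 8 markers had negative log2 fold changes in LepL against IgGL (median -0.60). Cardiac and skeletal muscle markers summed to 201 to 623 CPM in the IgGL libraries and 636 to 1585 CPM in the LepL libraries. In whole-organ RNA, fewer cells of a type and less RNA per cell cannot be told apart, and the part of these shifts in the results below was not tested. Some libraries stood apart. IgGK replicates 1 and 2 carried markers of adrenal cortex, with 5 markers summing to 509 and 646 CPM against 14.9 CPM in IgGK replicate 3 and 7.11 to 8.72 CPM in the WTK and LepK libraries, and IgGL replicate 3 held the highest neutrophil sum of the lung libraries.

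Gene coordinates are those of the deposited table (GRCm39). *Lif* and *Osm* are neighbours on chromosome 11, where *Osm* spans chr11:4186420-4191026 and *Lif* chr11:4207557-4222514, both on the plus strand and separated by 16530 bases. *Osmr* (chr15:6843058-6904450, minus strand) and *Lifr* (chr15:7120095-7226970, plus strand) lie 215644 bases apart. The other loci were *Il6* at chr5:30218112-30224979, *Il11* at chr7:4775372-4785858, *Clcf1* at chr19:4264292-4273544, *Il6ra* at chr3:89771366-89820503, *Il6st* at chr13:112600604-112646620 and *Il11ra1* at chr4:41699989-41769474. The *Il11ra1* model overlaps 6 other genes, among them *Dctn3* on the opposite strand and *Galt* on the same strand, and since the libraries did not keep strand, reads from the overlapping stretches cannot be assigned with certainty. Its near-copy *Il11ra2* drew 0 to 19 reads per library. The *Clcf1* locus shares 9134 bases with the same-strand gene *Gm45928*, which drew 0 reads in every library. How reads from that stretch were assigned is not known.

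The proximal promoters of the members were searched for an AP-1 and a STAT motif, as a description. RefSeq promoter sequences (GRCm38.p6, the 250 bases before a transcription start) were found for 8 of the 10 genes, as 11 sequences since some genes have more than 1 start. None was found for the ligands *Osm* and *Clcf1*, so whether they hold either motif was not examined. The AP-1 motif TGANTCA, which reads the same on both strands, occurred once each in the promoters of the ligands *Il6*, *Il11* (the second of its 2 starts) and *Lif*, and in no promoter of the 5 receptors, while 6.75% of all 32851 promoters held it. The STAT motif TTCNNNGAA, which occurred in 7.02% of all promoters, was in none of the 11 sequences. A match describes letters in a window and is not evidence of binding. Of the ligands with the AP-1 motif, *Lif* was called in IgGK against WTK, and *Il6* and *Il11* were not. The 3 promoters with the motif are shown with its letters in capitals, followed by that of *Osmr*, the receptor that changed most in IgGK against WTK, which holds neither motif.
*Il6* (chr5:30012864-30013113, plus strand): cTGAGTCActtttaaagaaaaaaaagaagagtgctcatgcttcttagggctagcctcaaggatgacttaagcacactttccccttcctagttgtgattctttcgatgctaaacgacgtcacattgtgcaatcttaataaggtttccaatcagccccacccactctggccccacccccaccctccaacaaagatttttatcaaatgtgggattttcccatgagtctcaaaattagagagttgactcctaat
*Il11* (chr7:4778142-4778391, minus strand): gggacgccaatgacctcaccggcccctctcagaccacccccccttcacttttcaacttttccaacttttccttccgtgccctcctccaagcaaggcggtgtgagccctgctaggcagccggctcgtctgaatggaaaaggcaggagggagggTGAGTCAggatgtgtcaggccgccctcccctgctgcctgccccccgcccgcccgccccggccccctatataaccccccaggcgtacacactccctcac
*Lif* (chr11:4257318-4257567, plus strand): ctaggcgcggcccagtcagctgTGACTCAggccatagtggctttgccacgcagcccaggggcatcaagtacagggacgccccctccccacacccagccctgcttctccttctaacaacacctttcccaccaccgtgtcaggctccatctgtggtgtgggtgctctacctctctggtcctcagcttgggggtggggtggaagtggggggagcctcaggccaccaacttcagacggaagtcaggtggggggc
*Osmr* (chr15:6874314-6874563, minus strand): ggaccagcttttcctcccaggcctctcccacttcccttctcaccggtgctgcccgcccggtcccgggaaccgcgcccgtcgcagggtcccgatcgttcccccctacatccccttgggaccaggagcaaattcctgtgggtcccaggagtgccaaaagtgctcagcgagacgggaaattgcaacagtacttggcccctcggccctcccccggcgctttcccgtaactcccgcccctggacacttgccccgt

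Receptor chains other than *Osmr* and *Il6ra* stood far above the ligands in uninjured kidney. Levels of different genes are compared in FPKM, which divides reads by gene length. The deposited FPKM were 0.686 to 0.981 times the values from the count totals, by a factor per library that was not identified. That factor was highest in WTK, and the orders of groups below depend on it. In WTK the order ran from *Il11ra1* (22.5 ± 0.722 FPKM, SD, n = 3) and *Il6st* (17.3 ± 0.573) through *Lifr* (6.49 ± 0.103) and *Clcf1* (2.07 ± 0.262) to *Osmr* (0.633 ± 0.0518) and *Il6ra* (0.471 ± 0.0409). The other 4 ligands averaged 0.0172 to 0.154 FPKM. In IgGK, *Clcf1* (9.81 ± 0.948 FPKM) ranked next behind *Il6st* and *Il11ra1* and remained the ligand with the highest level, while in IgGL *Lif* was the highest ligand (8.76 ± 2.57 FPKM) and *Osmr* (10.5 ± 0.515 FPKM) ranked second behind *Il6st* (27.6 ± 4.63 FPKM). Across the 5 groups, *Clcf1* was highest in IgGK and its library ranges fell apart between every neighbouring pair in the order IgGK, LepK, IgGL, LepL, WTK except IgGL and LepL. *Osmr* followed the order IgGL, LepL, IgGK, LepK, WTK with no overlap between neighbours, and *Lif* followed the same order with none either. *Il6* in the 3 kidney groups and *Il11* in LepL and the kidney groups overlapped between neighbours.

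**Figure D1:**
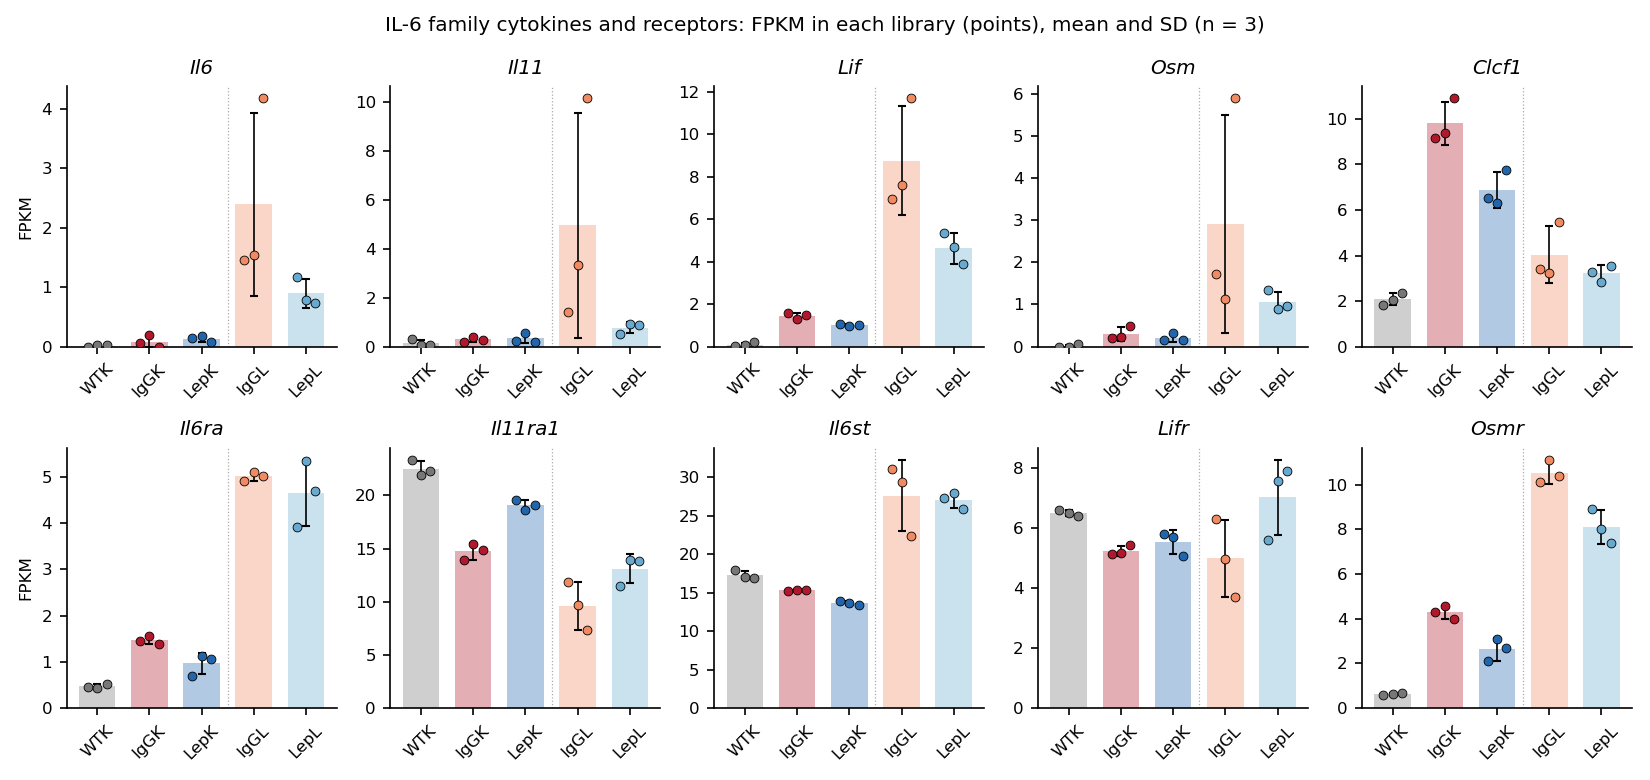
FPKM of each gene in each library (points), with the group mean (bar) and SD (n = 3); kidney groups stand left of the dotted line and lung groups right of it, and each panel has its own scale from 0. *Osmr* and *Lif* were lowest in WTK and highest in IgGL, while *Clcf1* was highest in IgGK.

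Folic acid injury was accompanied by higher *Osm*, *Lif* and *Clcf1*, 3 of the 5 ligands. Genes are called changed where the log2 fold change exceeds 0.5 in size and the adjusted p is under 0.05 (edgeR quasi-likelihood test, Benjamini-Hochberg over all genes), and CPM are scaled within each organ. In IgGK against WTK, 5 of the 10 members were called higher and 1 lower, beside 37.3% of all 19593 genes tested called in either direction, 21.7% higher and 15.6% lower. The member median was 1.95 on the log2 scale against 0.04 over all genes. It lies between *Il6ra* (1.67) and *Il6* (2.23), and *Il6* had 0 to 20 reads in IgGK and was not called. In WTK *Lif* had 2 to 29 reads and *Osm* 0 to 4. Both met the filter on low counts (minimum of 10) with the help of the folic acid groups. A gene that enters this way tends to be called higher. The members were also chosen with earlier results of these data known, so these counts are a description. Without normalization for composition (scaling by library size alone) the median of all genes moved to 0.48 and the calls over all genes from 4253 higher and 3057 lower to 7803 and 1178, so small differences below are relative to the main scaling.

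*Lif*, a ligand that mesenchymal and epithelial cells release on injury, measured 0.0831, 0.474 and 1.05 CPM in WTK and 8.51, 7.06 and 8.01 CPM in IgGK. Every IgGK library thus exceeded every WTK library, and *Lif* rose by 3.83 on the log2 scale (SE 0.44, adjusted p = 1.11e-05). *Osm*, made mainly by myeloid cells, had 0, 0 and 4 reads in WTK and 17, 22 and 48 reads in IgGK, so its rise of 3.97 (SE 0.90, adjusted p = 0.00241) is measured against nearly empty libraries. Without WTK replicate 3 the WTK libraries held 0 reads and no fold can be given. *Clcf1* was well measured in both groups, at 8.39, 9.48 and 10.7 CPM in WTK and 43.0, 44.4 and 51.6 CPM in IgGK. Its rise of 2.28 (SE 0.12, adjusted p = 3.77e-08) had the smallest relative error among the ligands.

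*Il6* and *Il11*, the ligands most often named in fibrosis, were barely detected in kidney. *Il6* had 0, 2 and 2 reads in WTK and 6, 20 and 0 reads in IgGK, with a log2 fold change of 2.23 (SE 1.20, adjusted p = 0.14). All of its IgGK reads came from replicates 1 and 2, the libraries with adrenal cortex markers, and the groups overlapped. *Il11* had 19, 4 and 6 reads in WTK and 16, 37 and 26 in IgGK, also overlapping, with a log2 fold change of 1.02 (SE 0.65, adjusted p = 0.208). Neither difference passed with all libraries, and single libraries moved both: *Il6* ranged from 0.85 without IgGK replicate 2 to 2.81 without IgGK replicate 3 (adjusted p = 0.0353, called), and *Il11* from 0.65 without WTK replicate 2 to 2.03 without WTK replicate 1 (adjusted p = 0.0302, called).

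Among the receptor chains, *Osmr* and *Il6ra* rose and *Il11ra1* fell. *Osmr* measured 8.47, 9.44 and 9.92 CPM in WTK and 64.5, 68.7 and 60.2 CPM in IgGK, a rise of 2.79 (SE 0.13, adjusted p = 2.44e-08), which is 6.94-fold. *Il6ra* rose from 4.86, 4.54 and 5.37 CPM to 15.5, 16.7 and 14.97 CPM, by 1.67 (SE 0.18, adjusted p = 5.13e-06). Neither gene's groups overlapped, and IgGK replicate 3, without the adrenal markers, stood at the level of the other IgGK libraries for both. *Il11ra1* fell from 127, 119 and 120 CPM to 77.0, 85.8 and 82.6 CPM, by 0.57 (SE 0.06, adjusted p = 7.35e-06), a call that was lost under scaling by library size alone.

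The shared chain *Il6st* and the LIF receptor did not pass. *Il6st* measured 242, 228 and 227 CPM in WTK and 209, 211 and 212 CPM in IgGK, without overlap, at a log2 fold change of -0.14 (SE 0.06, adjusted p = 0.0613). *Lifr* measured 86.1, 84.6 and 83.0 CPM in WTK and 68.5, 68.9 and 72.9 CPM in IgGK, at -0.27 (SE 0.07, adjusted p = 0.00375), below the fold threshold. Under scaling by library size alone both values turned positive, to 0.30 and 0.17. In all, 8 members had groups that did not overlap, 5 higher and 3 lower, beside 62.6% of all genes tested (32.5% higher and 30.1% lower). With IgGK replicate 3 standing alone for IgGK, an alternative chosen after the adrenal markers were seen and in which that library is assumed to vary like the other groups, 5 members were still called higher and 1 lower, beside 3237 genes higher and 2651 lower of 21239 tested.

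**Figure D2:**
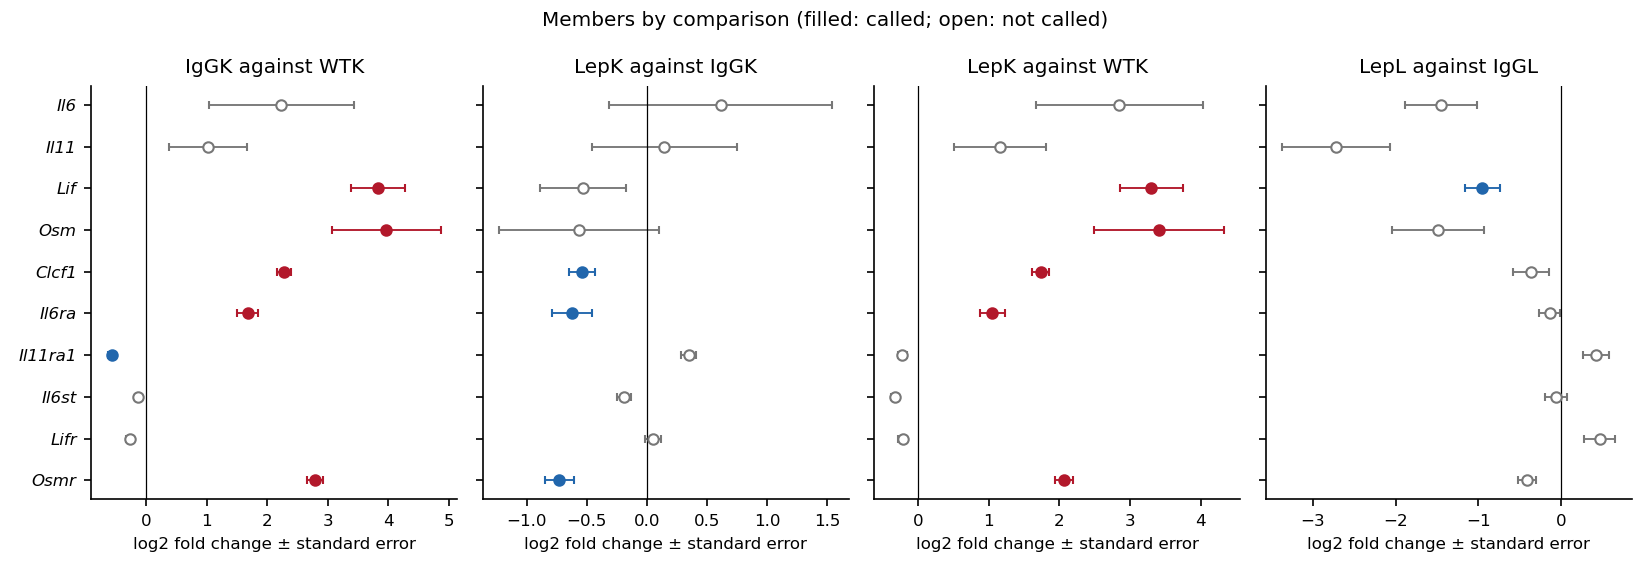
Log2 fold change of each gene with its standard error (horizontal bars) in 4 comparisons; filled points passed both thresholds (red higher, blue lower) and open points did not. *Osmr*, *Clcf1* and *Il6ra* stand at the right in IgGK against WTK and left of 0 in LepK against IgGK.

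In the folic acid kidney, the leptin antibody was accompanied by lower *Osmr*, *Il6ra* and *Clcf1*. LepK against IgGK called 0 members higher and 3 lower, beside 10.4% of all genes called in either direction, 4.38% higher and 5.99% lower. The member median was -0.36 against -0.01 over all genes. This comparison shares its IgGK libraries with the one above, so the comparisons are not independent. Macrophage and fibroblast marker sums were lower in LepK than in IgGK as well, and their part in these results was not tested.

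*Osmr* measured 30.9, 46.1 and 39.6 CPM in LepK, below all 3 IgGK libraries and above all 3 WTK libraries. Against IgGK it fell by 0.73 (SE 0.12, adjusted p = 0.00152), and it was called with each of the 6 libraries left out in turn. With IgGK replicate 3 alone the value was -0.62 (adjusted p = 0.0718), no longer called. *Clcf1* measured 30.2, 29.2 and 36.1 CPM in LepK and fell by 0.54 (SE 0.11, adjusted p = 0.0045). The call was kept in 4 of the 6 fits that left out a library and was lost, under the fold threshold, at -0.45 when IgGK replicate 3 was left out and at -0.48 when LepK replicate 2 was. With IgGK replicate 3 alone it was kept (-0.69, adjusted p = 0.0316).

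*Il6ra*, the alpha chain that confers IL-6 binding, measured 7.34, 11.9 and 11.3 CPM in LepK and fell by 0.63 (SE 0.17, adjusted p = 0.0193). Without the lowest library, LepK replicate 1, the value was -0.43, under the fold threshold. The call was also lost without IgGK replicate 1 (adjusted p = 0.0506), without IgGK replicate 2 (adjusted p = 0.0736) and with IgGK replicate 3 alone (adjusted p = 0.294). Thus of the 3 members called lower, 1 was called with that library alone, in a fit that called 429 genes higher and 235 lower. LepK replicate 1 also had the lowest macrophage and fibroblast marker sums among the LepK libraries, 599 and 387 CPM.

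The other ligands did not pass with all 3 kidney groups in the fit. *Lif* measured 5.73, 5.13 and 5.46 CPM in LepK, below every IgGK library, at -0.53 (SE 0.36, adjusted p = 0.339), and was called when WTK was left out of the fit (adjusted p = 0.047). *Osm* had 13, 26 and 12 reads in LepK and overlapped with IgGK, at -0.56 (SE 0.67, adjusted p = 0.608). *Il6* had 13, 16 and 6 reads, at 0.61 (SE 0.93, adjusted p = 0.696), and *Il11* 19, 43 and 14 reads, at 0.14 (SE 0.60, adjusted p = 0.899), both overlapping with IgGK. For *Osm*, *Il6* and *Il11* the standard error exceeded the difference.

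Of the remaining receptors, *Il11ra1* measured 106, 101 and 104 CPM in LepK, above every IgGK library and below every WTK library, at 0.35 (SE 0.06, adjusted p = 0.00252), under the fold threshold. *Il6st* measured 188, 185 and 182 CPM, below every IgGK library, at -0.19 (SE 0.06, adjusted p = 0.0372), also under it. *Lifr* measured 76.0, 74.8 and 66.8 CPM and overlapped with IgGK, at 0.05 (SE 0.07, adjusted p = 0.653). Groups did not overlap for 6 members, 1 higher and 5 lower, beside 37.4% of all genes tested (17.8% higher and 19.5% lower).

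The antibody-treated kidneys still differed from WTK. In LepK against WTK, 5 members were called higher and 0 lower, beside 22.5% of all genes called in either direction, 15.2% higher and 7.3% lower, and these were the 5 genes called higher in IgGK against WTK. *Osmr* stood 2.06 above WTK on the log2 scale (SE 0.13, adjusted p = 1.00e-06), *Clcf1* 1.74 (SE 0.12, adjusted p = 1.54e-06), *Il6ra* 1.05 (SE 0.18, adjusted p = 5.82e-04), *Lif* 3.30 (SE 0.44, adjusted p = 1.18e-04) and *Osm* 3.41 (SE 0.92, adjusted p = 0.011). *Il6st* (-0.33), *Lifr* (-0.22) and *Il11ra1* (-0.23) had adjusted p under 0.05 and stayed within the fold threshold. Groups did not overlap for 6 members on the higher side and 3 on the lower, beside 50.2% of all genes tested (25.6% higher and 24.6% lower). The LepK libraries are the same as in the preceding comparison. *Lif* and *Osm* met the filter on low counts with the help of the folic acid groups here as well.

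Because LIF receptor and oncostatin M receptor are alternative partners of gp130, the ratio of their FPKM values was taken in each library, a measure that does not depend on scaling between libraries and that was chosen after the values were seen. *Osmr* over *Lifr* was 0.0875, 0.0992 and 0.106 in WTK, 0.837, 0.886 and 0.734 in IgGK, and 0.362, 0.548 and 0.528 in LepK. The 3 kidney groups did not overlap, and *Osmr* stayed below *Lifr* in each kidney library. In lung the ratio was 1.61, 2.23 and 2.80 in IgGL and 1.60, 1.06 and 0.937 in LepL, so that *Osmr* exceeded *Lifr* in every IgGL library and in 2 of 3 LepL libraries. The lung groups lay apart by 1.61 against 1.60. *Osmr* over *Il6st* had the same order in kidney, with 0.0367 ± 0.0041 in WTK (mean ± SD, n = 3), 0.28 ± 0.0193 after folic acid with IgG and 0.193 ± 0.0396 with the antibody. In lung it was 0.389 ± 0.0706 with IgG and 0.3 ± 0.0235 with the antibody. These lung groups overlapped, with 0.325 in IgGL replicate 1 and 0.327 in LepL replicate 1.

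**Figure D3:**
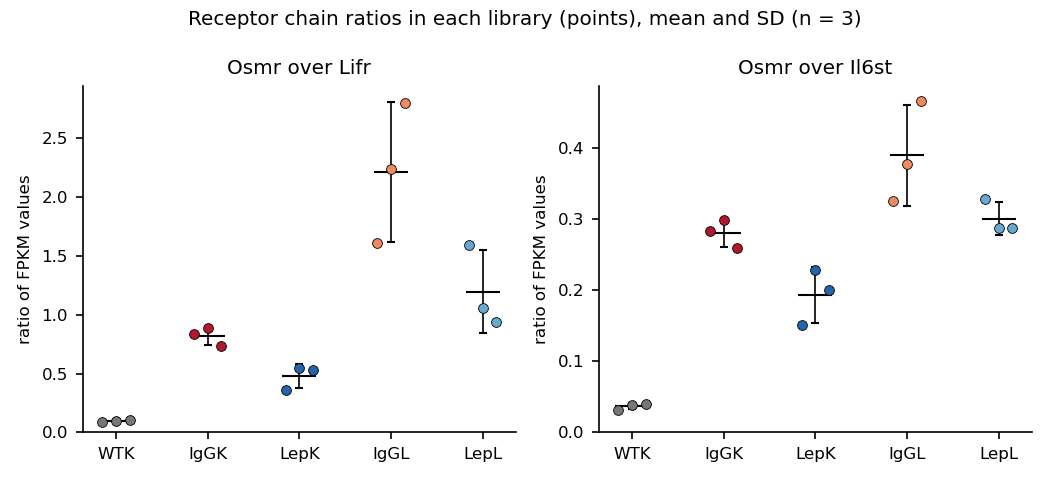
Ratio of FPKM values of *Osmr* to *Lifr* (left) and *Osmr* to *Il6st* (right) in each library (points), with mean and SD (n = 3). The WTK libraries lie at 0.0875 to 0.106 for *Osmr* over *Lifr*, and the IgGK libraries at 0.734 to 0.886.

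In the bleomycin lung, each ligand had a lower mean with the leptin antibody, and 1 of them, *Lif*, passed the test. LepL against IgGL called 0 members higher and 1 lower, beside 4.14% of all 19617 genes called in either direction, 1.78% higher and 2.36% lower. The member median was -0.39 against 0.00 over all genes. Groups did not overlap for 4 members, all lower, beside 33.3% of all genes tested (16% higher and 17.3% lower).

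*Lif* measured 43.4, 48.5 and 75.5 CPM in IgGL and 33.1, 29.2 and 24.0 CPM in LepL, and fell by 0.96 (SE 0.21, adjusted p = 0.0444). All IgGL libraries lay above all LepL libraries, yet the call was kept in only 1 of the 6 fits that left out a library, that without IgGL replicate 1 (-1.11). In the other 5 fits the value was -0.68 without IgGL replicate 3 (adjusted p = 0.0644) and between -1.07 and -0.84 otherwise, and it was -0.92 with the replicate number as a block (adjusted p = 0.0985). Calls over all genes fell in those fits as well, from 349 higher and 463 lower to at most 18 higher and 4 lower. *Il11*, a cytokine that acts on fibroblasts and epithelium, measured 4.21, 10.1 and 31.4 CPM in IgGL and 1.50, 2.75 and 2.65 CPM in LepL, also without overlap. Its log2 fold change of -2.72 (SE 0.65, adjusted p = 0.0513), the largest in this comparison, missed the threshold and shrank to -1.64 without IgGL replicate 3.

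*Il6* measured 5.07, 5.50 and 15.03 CPM in IgGL and 4.08, 2.72 and 2.57 CPM in LepL, at -1.45 (SE 0.43, adjusted p = 0.0787), or -0.76 without IgGL replicate 3. *Osm* measured 5.62, 3.72 and 19.8 CPM in IgGL and 4.31, 2.92 and 3.15 CPM in LepL, at -1.49 (SE 0.56, adjusted p = 0.132), or -0.44 without that library. A single library, IgGL replicate 3, was the highest for *Lif*, *Il11*, *Il6*, *Osm* and *Clcf1*. That library also had the highest neutrophil sum (411 CPM against 172 and 199 CPM) and the lowest alveolar type 2 sum of the lung libraries. The part of these sums in the values was not tested. DESeq2, the fit with no filter on low counts and the fit without IgGL replicate 1 each called 4 members lower, while the genes called lower over the whole table went from 463 to 1102, 1173 and 1602 in the same order.

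**Figure D4:**
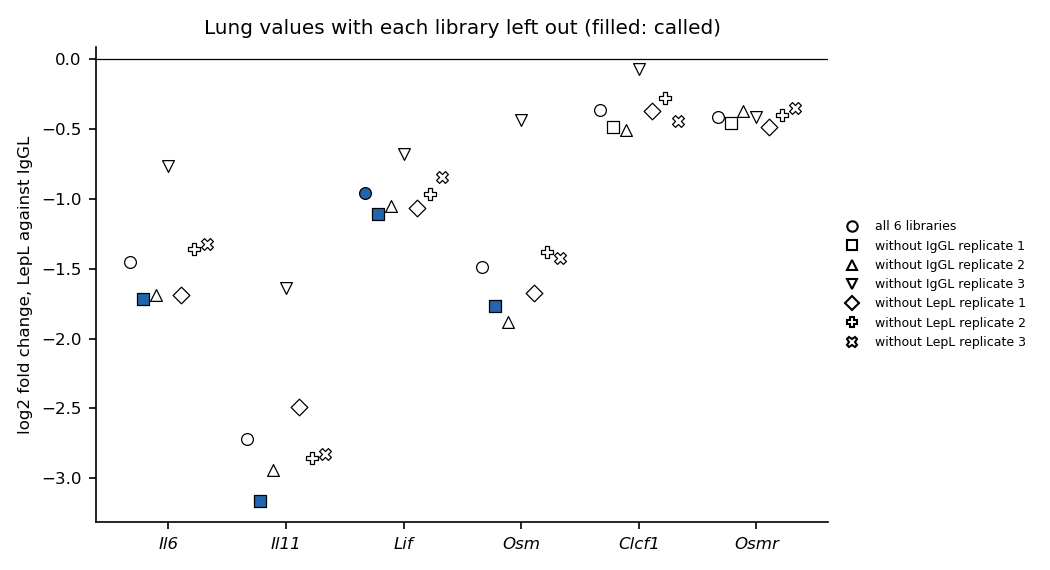
Log2 fold change of 6 genes in LepL against IgGL with all 6 libraries and with each library left out in turn (marker shapes); filled markers passed both thresholds. *Il11*, *Il6*, *Lif* and *Osm* moved toward 0 without IgGL replicate 3 and passed without IgGL replicate 1.

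*Clcf1*, at 18.6, 17.9 and 30.9 CPM in IgGL and 17.7, 15.4 and 19.3 CPM in LepL, overlapped between groups (-0.36, SE 0.22, adjusted p = 0.319). *Osmr* measured 176, 197 and 187 CPM in IgGL and 154, 139 and 128 CPM in LepL without overlap, at -0.41 (SE 0.11, adjusted p = 0.0608), a value that stayed between -0.48 and -0.35 with each library left out. *Il6ra* measured 60.9 to 64.7 CPM in IgGL and 48.3 to 66.2 CPM in LepL (-0.14, adjusted p = 0.502), and *Il6st* 367 to 494 CPM and 409 to 443 CPM (-0.06, adjusted p = 0.802). Neither of these receptors moved beyond the spread of its libraries. *Lifr* measured 97.1, 78.3 and 59.3 CPM in IgGL and 85.9, 116 and 121 CPM in LepL, at 0.46 (SE 0.19, adjusted p = 0.161), and *Il11ra1* 75.9, 63.1 and 48.7 CPM and 73.4, 89.4 and 88.3 CPM, at 0.42 (SE 0.16, adjusted p = 0.138). Both overlapped, both were lowest in IgGL replicate 3, and both were called higher without IgGL replicate 1.

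The injured lung held more of most family members than the injured kidney, a comparison in which organ, injury and day of sampling change together. In IgGL against IgGK, 7 members were called higher and 2 lower, beside 50.5% of all 21488 genes called (24.2% higher and 26.3% lower). The largest differences on the log2 scale were in *Il6* (4.78, SE 0.74, adjusted p = 8.15e-05) and *Il11* (4.03, SE 0.66, adjusted p = 1.24e-04), followed by *Osm* (3.24), *Lif* (2.58), *Il6ra* (1.76), *Osmr* (1.29) and *Il6st* (0.84). *Clcf1* (-1.29, SE 0.18, adjusted p = 3.69e-05) and *Il11ra1* (-0.63, SE 0.13, adjusted p = 0.00105) were lower in lung, and *Lifr* (-0.09, adjusted p = 0.666) did not pass. With IgGK replicate 3 alone 7 members were again called higher and 2 lower, but that library held 0 reads of *Il6*, so no fold is given for it there. Without IgGL replicate 3, *Il6* was at 4.12, *Il11* at 2.97 and *Osm* at 2.21, all called, and *Il11ra1* lost its call at -0.46. With all libraries the same 9 members had groups that did not overlap, beside 65.3% of all genes (31.5% higher and 33.7% lower).

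Whether the antibody effect differed between the organs was tested as (LepK - IgGK) minus (LepL - IgGL). By edgeR, 0 of the 10 members passed, beside 6.66% of all genes (3.18% higher and 3.49% lower), with 1 member at an unadjusted p under 0.05, and DESeq2 called 1. That gene was *Il11*, at 2.89 (SE 0.89, adjusted p = 0.0674), which was 0.14 in kidney and -2.72 in lung. With a library left out it ranged from 1.78 without IgGL replicate 3 (adjusted p = 0.152) to 3.34 without IgGL replicate 1 (adjusted p = 0.00794, called), and it was 2.94 with IgGK replicate 3 alone (adjusted p = 0.315). *Osmr* differed by -0.29 (SE 0.17, adjusted p = 0.316), *Il6ra* by -0.46 (SE 0.22, adjusted p = 0.203), *Lif* by 0.46 (SE 0.27, adjusted p = 0.316) and *Clcf1* by -0.15 (SE 0.26, adjusted p = 0.768). Without IgGL replicate 3 the difference for *Lif* was 0.15 and that for *Clcf1* -0.48, neither called. Calls in kidney for *Osmr*, *Il6ra* and *Clcf1* and in lung for *Lif* are thus not shown to be particular to an organ.

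Downstream and partner genes were described through 4 lists of 50 genes in all. The lists were chosen with earlier results of these data known, so their counts are a description and not a test. In the folic acid kidney, 5 of 6 tested other family genes, 3 of 8 kinases and STATs, 4 of 8 feedback and shedding genes and 23 of 23 tested gp130 response genes were called higher in IgGK against WTK, and none of them lower, beside 21.7% of all genes. *Cntf*, *Il31*, *Il31ra*, *Il11ra2* and *Saa2* had too few reads to be tested in kidney, and a gene that passed that filter through IgGK alone had to differ. The medians were 2.13, 0.21, 0.59 and 1.97 (log2). In LepK against IgGK the counts called lower were 2, 0, 2 and 9, with none higher, beside 5.99% of all genes, and in LepL against IgGL 0, 0, 0 and 6, beside 2.36%. The 9 response genes of the kidney comparison became 5 without LepK replicate 1 and 15 without LepK replicate 2. The 6 of the lung comparison became 0 with the replicate number as a block, with the test against the fold threshold itself (glmTreat) and without any 1 library other than IgGL replicate 1, without which there were 9. The response genes are not specific to this receptor family, since many also answer NF-kB. Their summed level was 301 to 316 CPM in WTK, 840 to 981 in IgGK and 518 to 700 in LepK. The macrophage, fibroblast, neutrophil and injured tubule marker sums had the same order in kidney. In lung the response genes summed to 4701 to 6754 CPM in IgGL and 3545 to 4097 in LepL. The neutrophil and fibroblast marker sums were lower in LepL as well. The macrophage sum, most of it *Lyz2*, was higher in LepL, although 6 of its 8 markers had negative log2 fold changes. The part of any cell type in these levels was not tested.

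Among the other family genes, *Il27ra*, a receptor chain that also pairs with gp130, rose by 2.59 in IgGK against WTK and fell by 0.94 in LepK against IgGK. Of the kinases and STATs, *Stat3* rose by 0.92 in IgGK against WTK (SE 0.07, adjusted p = 6.39e-07) and was at -0.31 (adjusted p = 0.0107) with the antibody in kidney and -0.40 (adjusted p = 0.0774) in lung, under the fold threshold in both. *Jak1* was at -0.06 and -0.20 and *Jak2* at 0.47 and -0.41 in the kidney comparisons in the same order.

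The STAT3-induced inhibitor *Socs3* rose by 3.33 in IgGK against WTK (SE 0.12, adjusted p = 7.61e-09) and fell by 0.84 in LepK against IgGK (SE 0.11, adjusted p = 4.10e-04), while in lung it was at -0.49 (SE 0.18, adjusted p = 0.118). *Socs2*, better known as an inhibitor of growth hormone signalling, rose by 1.78 and fell by 0.55. Among the response genes, *Lcn2*, encoding an iron-trapping acute-phase protein and a marker of tubular injury, rose by 5.25 and fell by 1.36 in kidney and was at 0.01 in lung. *Timp1*, an inhibitor of matrix metalloproteinases, rose by 5.13 and fell by 1.32 in kidney and fell by 2.33 in lung (adjusted p = 0.0387). The protease inhibitor gene *Serpina3n*, the monocyte chemokine gene *Ccl2* and the interleukin-4 receptor gene *Il4ra* fell with the antibody in both organs, by 0.84, 0.74 and 0.63 in kidney and by 2.08, 1.85 and 1.12 in lung. The lung calls of *Timp1*, *Serpina3n*, *Ccl2* and *Il4ra* are among the 6 that were lost with the block and without any library other than IgGL replicate 1.

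The metalloreductase gene *Steap4* (-0.95) and the transcription factor gene *Cebpd* (-0.70) fell in kidney and were at -0.41 and -0.20 in lung, whereas the acute-phase gene *Saa3* fell by 2.16 in lung (adjusted p = 0.0444), a call lost in those same fits, and was at -1.08 in kidney (adjusted p = 0.217). With IgGK replicate 3 alone, the counts called lower in LepK against IgGK were 1 of the other family genes, 1 of the feedback and shedding genes and 1 of the response genes.

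**Figure D5:**
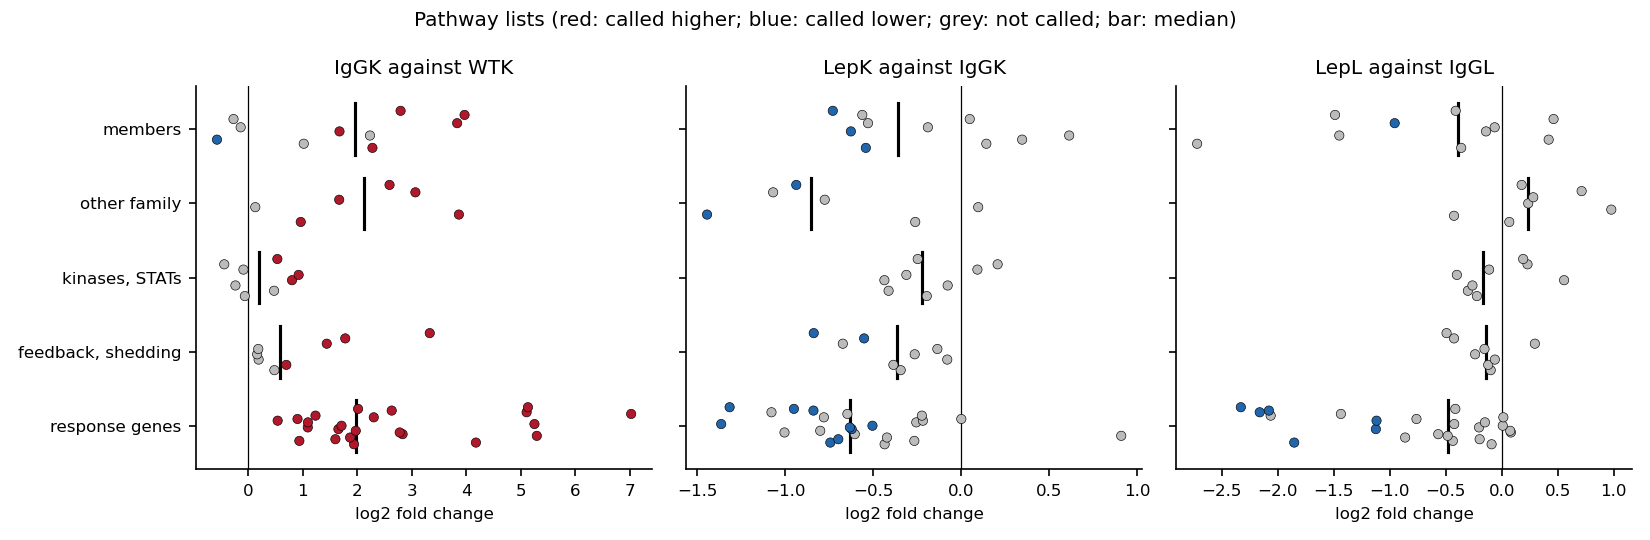
Log2 fold changes of the 10 members and of the genes in 4 pathway lists in 3 comparisons (points; red called higher, blue called lower, grey not called) with the list median (bar). In IgGK against WTK all 23 tested response genes lie at the right of 0 and are called. The lists were chosen with earlier results of these data known.

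Genes whose profile over the 9 kidney libraries was most like that of a member were found by the smallest root-mean-square difference in centred log2 CPM among 13824 protein-coding genes. For *Osmr* these were *S100a6* (0.0986) and *Tnfsf13b* (0.111), for *Clcf1* *Serpinb6b* (0.147) and *Arntl2* (0.149), and for *Il6ra* *Pid1* (0.0787) and *Lix1l* (0.0836). For *Lif* the nearest were *Egr2* (0.337) and *Ccl2* (0.378), a wider distance that goes with its low counts in WTK. The profiles of *Lifr* (*Stk38l* and *Faf2*) and *Il11ra1* (*Atp5h* and *Pcbp3*) had neighbours at 0.0314 to 0.0483. *Il6*, *Il11* and *Osm* averaged under 1 CPM in kidney and were not searched.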

How the data were processed

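RNA-seq libraries (poly(A), not strand-specific) were analysed from the table of counts per gene that the authors deposited, with FPKM values in the same table. The submitters' processing notes name GRCm39 (mm39), DESeq and DESeq2. The aligner and the counter are not given in the sources used here. Columns of the authors' own comparisons (fold changes, p-values) were not used. The deposited FPKM equal counts divided by gene length and by a single factor per library, which was not the sum of the count column, and served only to compare genes and organs. Groups follow the sample titles.

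Counts were scaled by TMM and tested with edgeR 4.0.16 (R 4.3.3, quasi-likelihood, filterByExpr with a minimum count of 10), with Benjamini-Hochberg adjustment over all genes tested. Calls needed an absolute log2 fold change over 0.5 and an adjusted p under 0.05. Kidney (9 libraries), lung (6) and injured organs (12) were fitted separately, and DESeq2 1.42.0 was an alternative. The procedure was tested on simulated counts. Library totals of 25913969 to 38924788 set the precision of the low counts. The study's text speaks of 3 mice for each lung group, while the labels link no library to an animal, so p-values measure the spread between these libraries. Replicate pairs differed by more than sampling noise (chi-square per gene from 7.15 to 98.6). The members and lists were chosen with earlier results of these data known. Named list genes were those called in at least 2 of IgGK against WTK, LepK against IgGK and LepL against IgGL, up to 8 per list, plus *Socs3*, *Stat3*, *Jak1* and *Jak2*. Likeness used a pseudocount of 0.1 CPM and genes of at least 1 CPM on average. Some genes that meet these rules are not reported here.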

Additional observations from a re-analysis of the deposited data

Results flagged for a closer look

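*Lcn2* and *Myc*, both among the gp130 response genes, had an antibody effect that differed between kidney and lung by the test of the difference itself (edgeR, Benjamini-Hochberg over all genes). *Lcn2* differed by -1.34 on the log2 scale (SE 0.27, adjusted p = 0.0191), from -1.36 in kidney and 0.01 in lung. *Myc* differed in the other direction, by 1.15 (SE 0.28, adjusted p = 0.0312), from 0.00 in kidney and -1.12 in lung. They were 2 of 24 tested response genes, beside 6.66% of all genes called for this difference. The count is near that share, so the list does not stand out by it, and the list was chosen with earlier results of these data known. The *Myc* call was lost under scaling by library size, under glmTreat, with IgGK replicate 3 alone and in 8 of the 12 fits that left out a library, and the *Lcn2* call was lost under glmTreat and with IgGK replicate 3 alone.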

How the results depend on the processing

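Of 1088 alternative values for the members' log2 fold changes, 1018 kept direction and call, 28 lost the call, 27 gained it and 15 changed sign; DESeq2 gave no adjusted p for *Il6* in LepK against IgGK. Scaling by library size called 0 members lower in IgGK against WTK (1 with TMM) and changed the sign of *Il6st* (0.30) and *Lifr* (0.17) there, of *Lifr* (-0.13) and *Il11* (-0.033) in LepK against IgGK, and of *Lifr* (0.038) and *Il11ra1* (0.034) in LepK against WTK. Testing against the fold threshold itself (glmTreat) or requiring a log2 fold change over 1 in size each left 0 members lower in IgGK against WTK, LepK against IgGK and LepL against IgGL, and 1 in IgGL against IgGK. Without a fold threshold, 2 members were lower in IgGK against WTK, 1 was higher in LepK against IgGK and 3 were lower in LepK against WTK. In LepL against IgGL the 1 call became 4 under DESeq2 and with no filter, 2 with the injured kidney groups in the fit and 0 with the replicate block. The organ difference gained 1 call under DESeq2 and 2 with no filter. With each library left out in turn, the lung calls ranged from 0 to 4 lower and 0 to 2 higher, the organ difference from 0 to 1 higher and IgGL against IgGK from 1 to 2 lower. Signs changed among these fits for *Il11* in LepK against IgGK (-0.44 to 0.43), *Osm* in the organ difference (-0.13 to 1.49), *Il11ra1* in the organ difference (-0.20 to 0.079), *Il6st* in LepL against IgGL (-0.19 to 0.017) and *Lifr* in IgGL against IgGK (-0.27 to 0.10). With IgGK replicate 3 alone, an alternative chosen after seeing the data in which the lone library is assumed to vary like the other groups, 1 member was lower in LepK against IgGK and *Il6* in IgGK against WTK turned to -3.66, where that library held 0 reads of it. The replicate numbers are shared between groups. Deviations of same-numbered libraries from their group means correlated at -0.12 to 0.26. The highest values were 0.26 and 0.24, for IgGK with LepK at replicates 1 and 2. Differently numbered libraries were not compared, so whether same-numbered libraries share more than a number cannot be told. Apart from the lung calls, the replicate block changed no count of members by over 1.5 times. Depth limits *Il6*, *Il11* and *Osm* in kidney, where libraries held 0 to 48 reads.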
